A study of Mus musculus with 7 samples.

Results

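The genes examined here are 4 members of the corticotropin-releasing hormone family in the mouse, the ligand genes Ucn3 and Ucn and the receptor genes Crhr1 and Crhr2. They were chosen by name out of 21938 protein-coding genes, and the data counted for them are the open chromatin peaks that overlap each gene body or the 20 kb on either side of it. Of 1190565 distinct peaks in 7 ATAC-Seq lists, 130 lay in these 4 windows. The lists held 20 and 16 of them in alpha 1 and 2, 42, 7, and 23 in beta 1, 2, and 3, and 13 and 9 in delta 1 and 2. By gene, 34 peaks fell to Ucn3, 27 to Ucn, 28 to Crhr1, and 41 to Crhr2.

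In ATAC-Seq a transposase inserts sequencing adapters into DNA that is not wrapped tightly in nucleosomes, so a peak marks a stretch of accessible chromatin. The libraries came from alpha cells (n = 2), beta cells (n = 3), and delta cells (n = 2), sorted by fluorescence from islets of healthy triple transgenic mice that were pooled by sex. All mice carried mIns1-H2b-mCherry, in which an Ins1 promoter drives a nuclear red label in beta cells, and Rosa-LSL-YFP, a yellow label that needs Cre to be switched on. Gcg-Cre switched it on in alpha cells and Sst-Cre in delta cells, and a Cre label also stays on in cells that expressed Cre earlier in their history. The labels do not give the age of the mice or which of the Cre lines the beta cells came from.

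Urocortin 3 is a peptide hormone that mature beta cells store and release together with insulin. It acts through the receptor CRHR2, which in mouse islets is found on delta cells, where it promotes the release of somatostatin, a peptide that restrains both insulin and glucagon secretion. Urocortin is a related peptide that binds both receptors, while CRHR1, the main receptor of corticotropin-releasing hormone in the pituitary, is found on beta cells in the islet. Both receptors couple to Gs and raise cyclic AMP.

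Ucn3 (ENSMUSG00000044988.7) lies on the minus strand at chr13:3940688-3945349 of GRCm38 (mm10), with 1 annotated start, a non-coding exon 1, and the whole peptide encoded by the last exon. Ucn (ENSMUSG00000038676.6) is a short gene on the minus strand at chr5:31138063-31138829, between Trim54 and Mpv17. Crhr1 (ENSMUSG00000018634.10) lies on the plus strand at chr11:104132855-104175523 with 1 annotated start. Crhr2 (ENSMUSG00000003476.16) lies on the minus strand at chr6:55090049-55133016 and has 8 annotated starts over 9 transcripts. The windows measured 44.662 kb, 40.767 kb, 82.669 kb, and 82.968 kb in this order.

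The sequences that carry the peaks described below are given 5' to 3' on the strand of the gene. Capitals mark the bases covered by a peak in each of the libraries named, except in the Ucn promoter, where they mark a motif. The first set opens with 300 bases around the median summit of the Ucn3 region that all 7 libraries called (chr13:3942477-3942776). Next is the beta 3 peak in the Ucn3 region that beta libraries alone called, with capitals for all 3 beta libraries (chr13:3943639-3943919). Last is the stretch directly upstream of the Ucn3 start, with capitals for alpha 1 and delta 2 (chr13:3945350-3945561).
Ucn3 intron, all libraries: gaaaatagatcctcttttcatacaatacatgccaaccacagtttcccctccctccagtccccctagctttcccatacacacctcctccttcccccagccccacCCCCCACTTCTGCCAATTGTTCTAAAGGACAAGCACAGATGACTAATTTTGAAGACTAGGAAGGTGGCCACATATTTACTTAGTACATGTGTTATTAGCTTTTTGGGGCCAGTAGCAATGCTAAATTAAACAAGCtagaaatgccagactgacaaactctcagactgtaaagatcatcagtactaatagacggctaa
Ucn3 intron, beta libraries: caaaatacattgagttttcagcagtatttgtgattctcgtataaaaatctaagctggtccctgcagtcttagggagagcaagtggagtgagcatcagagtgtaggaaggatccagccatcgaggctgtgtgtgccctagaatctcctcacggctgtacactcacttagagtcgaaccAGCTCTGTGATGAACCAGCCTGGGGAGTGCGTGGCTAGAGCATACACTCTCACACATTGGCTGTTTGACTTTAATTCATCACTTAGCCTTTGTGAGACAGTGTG
Ucn3 upstream: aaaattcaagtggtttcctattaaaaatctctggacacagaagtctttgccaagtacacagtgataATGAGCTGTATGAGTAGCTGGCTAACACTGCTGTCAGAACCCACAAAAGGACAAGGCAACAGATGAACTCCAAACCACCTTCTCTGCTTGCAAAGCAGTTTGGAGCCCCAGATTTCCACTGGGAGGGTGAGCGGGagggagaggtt
The second set holds receptor sequences. It opens with the first 300 bases of the Crhr1 intron region of alpha 2 and both delta libraries (chr11:104157902-104158201). Next is the beta 3 peak in the Crhr1 intron region of 5 libraries (chr11:104162548-104162747). The bases upstream of the internal starts of Crhr2 follow, with capitals for alpha 2 and both delta libraries (chr6:55118027-55118112). Last is the Crhr2 intron region of 6 libraries (chr6:55121749-55122043).
Crhr1 intron, alpha 2 and delta: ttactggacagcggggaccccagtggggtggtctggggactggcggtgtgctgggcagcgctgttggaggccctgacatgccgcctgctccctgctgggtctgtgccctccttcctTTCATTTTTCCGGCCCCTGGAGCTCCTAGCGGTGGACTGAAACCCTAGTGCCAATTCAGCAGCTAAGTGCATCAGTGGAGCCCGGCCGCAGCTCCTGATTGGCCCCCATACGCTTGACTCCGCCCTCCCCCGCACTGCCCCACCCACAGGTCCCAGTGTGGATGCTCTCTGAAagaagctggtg
Crhr1 intron, 5 libraries: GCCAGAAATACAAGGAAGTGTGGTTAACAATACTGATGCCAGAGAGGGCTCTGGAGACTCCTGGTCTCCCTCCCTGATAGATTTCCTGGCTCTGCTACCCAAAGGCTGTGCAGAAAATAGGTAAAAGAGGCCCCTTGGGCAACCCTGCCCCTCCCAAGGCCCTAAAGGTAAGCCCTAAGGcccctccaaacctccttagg
Crhr2 upstream of the internal start: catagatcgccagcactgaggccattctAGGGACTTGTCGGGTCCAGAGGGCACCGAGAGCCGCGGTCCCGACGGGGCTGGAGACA
Crhr2 intron, 6 libraries: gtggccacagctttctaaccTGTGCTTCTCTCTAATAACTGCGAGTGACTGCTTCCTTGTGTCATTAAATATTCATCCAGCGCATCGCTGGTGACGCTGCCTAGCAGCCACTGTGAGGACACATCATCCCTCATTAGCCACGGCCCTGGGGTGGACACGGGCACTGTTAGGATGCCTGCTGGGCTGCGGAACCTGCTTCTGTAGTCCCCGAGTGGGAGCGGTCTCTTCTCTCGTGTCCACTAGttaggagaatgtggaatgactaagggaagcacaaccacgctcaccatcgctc
The last is the RefSeq promoter of Ucn upstream of its start (chr5:31138896-31139145), shown because it holds a full cyclic AMP response element. Only alpha 2 listed a peak there, a weak peak (-log10 q 0.182) that covers the element.
Ucn promoter: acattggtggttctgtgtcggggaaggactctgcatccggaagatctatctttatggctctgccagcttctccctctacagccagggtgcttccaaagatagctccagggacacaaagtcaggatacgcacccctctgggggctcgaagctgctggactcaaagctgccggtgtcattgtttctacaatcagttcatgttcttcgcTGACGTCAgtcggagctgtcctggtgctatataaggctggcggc

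Letters of 8 motifs were looked for on both strands of these 8 sequences, and 3 matches were found. TGACGTCA, the cyclic AMP response element, was at bases 207 to 214 of the Ucn promoter, and 1.55% of 32851 RefSeq promoters of this length hold it. GGGCGG, the GC box, was on the opposite strand at bases 236 to 241 of the first Crhr1 intron region, and 13.5% of the 133698 merged regions called in at least 2 libraries hold it within 300 bases around their middle. TATAAA, the TATA box, was at bases 40 to 45 of the beta 3 peak at Ucn3, outside the bases covered in all 3 beta libraries. Of those merged regions, 14.3% hold it in a stretch of the same length. The homeobox core TAATTA, the forkhead motif TGTTTAC, the E-box CAGATGG of NeuroD1, the Maf motif TGCTGAC, and the GATA motif CTTATC were in none of the 8 sequences. A match of letters does not show that a protein binds there.

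The libraries differed in quality and in how their lists were named. All 3 lists labelled beta are named for alpha or delta cells, while the names of the alpha and delta lists carry the labelled cell type, and the labels were used throughout. The study sorted beta cells apart from alpha cells in Gcg-Cre mice and from delta cells in Sst-Cre mice. Whether the names refer to these sorts was not tested. Beta 1 stood apart, with 518503 peaks of which 5.0% reached a -log10 q of 2, against 75860 to 158066 peaks in the other lists with 29.8% to 54.9%. A -log10 q of 2 is used below as the mark of a well-supported peak, and results in which beta 1 decides a call are given without it as well. The list names also carry the sequencing lane, which was shared by both alpha libraries and beta 1, and another by beta 2, beta 3, and both delta libraries, so lane and cell type cannot be told apart between alpha and delta cells. Among the marker genes, Gcg had a peak within 1 kb of a start in both alpha libraries and in no beta library, Ins1 in all 7 libraries, and Sst in beta 1 at rank 23128 and in delta 1 and delta 2 at 130986 and 64933.5. The strongest Sst start peak by rank was thus in a library labelled beta. Of 9 marker genes of acinar, duct, endothelial, and immune cells, Cpa1, Krt19, and Cdh5 had no such peak in any list, and the other 6 were called in 1 to 5 libraries. The immune gene Ptprc was called in alpha 2, beta 1, beta 2, delta 1, and delta 2 at ranks from 61269.5 to 269106, the acinar gene Ptf1a in alpha 1 and 2 at 129864 and 101953, and the endothelial gene Pecam1 in alpha 2 and beta 1 at 71012 and 269106. Sox9, of duct cells, was called in delta 2 at 57585, and Cel and Cd68 in beta 1 at 269106. The part of such cells in the results was not tested. In bulk samples, fewer cells with open chromatin and less opening per cell cannot be told apart.

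Merged across the 7 lists, the 130 peaks formed 85 regions of 834695 in the genome. Of these, 17 (20%) were called in at least 2 libraries, against 16% of all merged regions. The other 68 came from 1 library each, and 31 of those came from beta 1, which gave 59.3% of all single-library regions. Of the 17 regions, 14 held at least 1 peak with a -log10 q of 2 and 9 held such peaks in at least 2 libraries. By annotation, 11 of the 17 lay in introns, 5 touched exons, and 1 was intergenic. Without beta 1, 12 regions remained in at least 2 libraries.

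**Figure D1:**
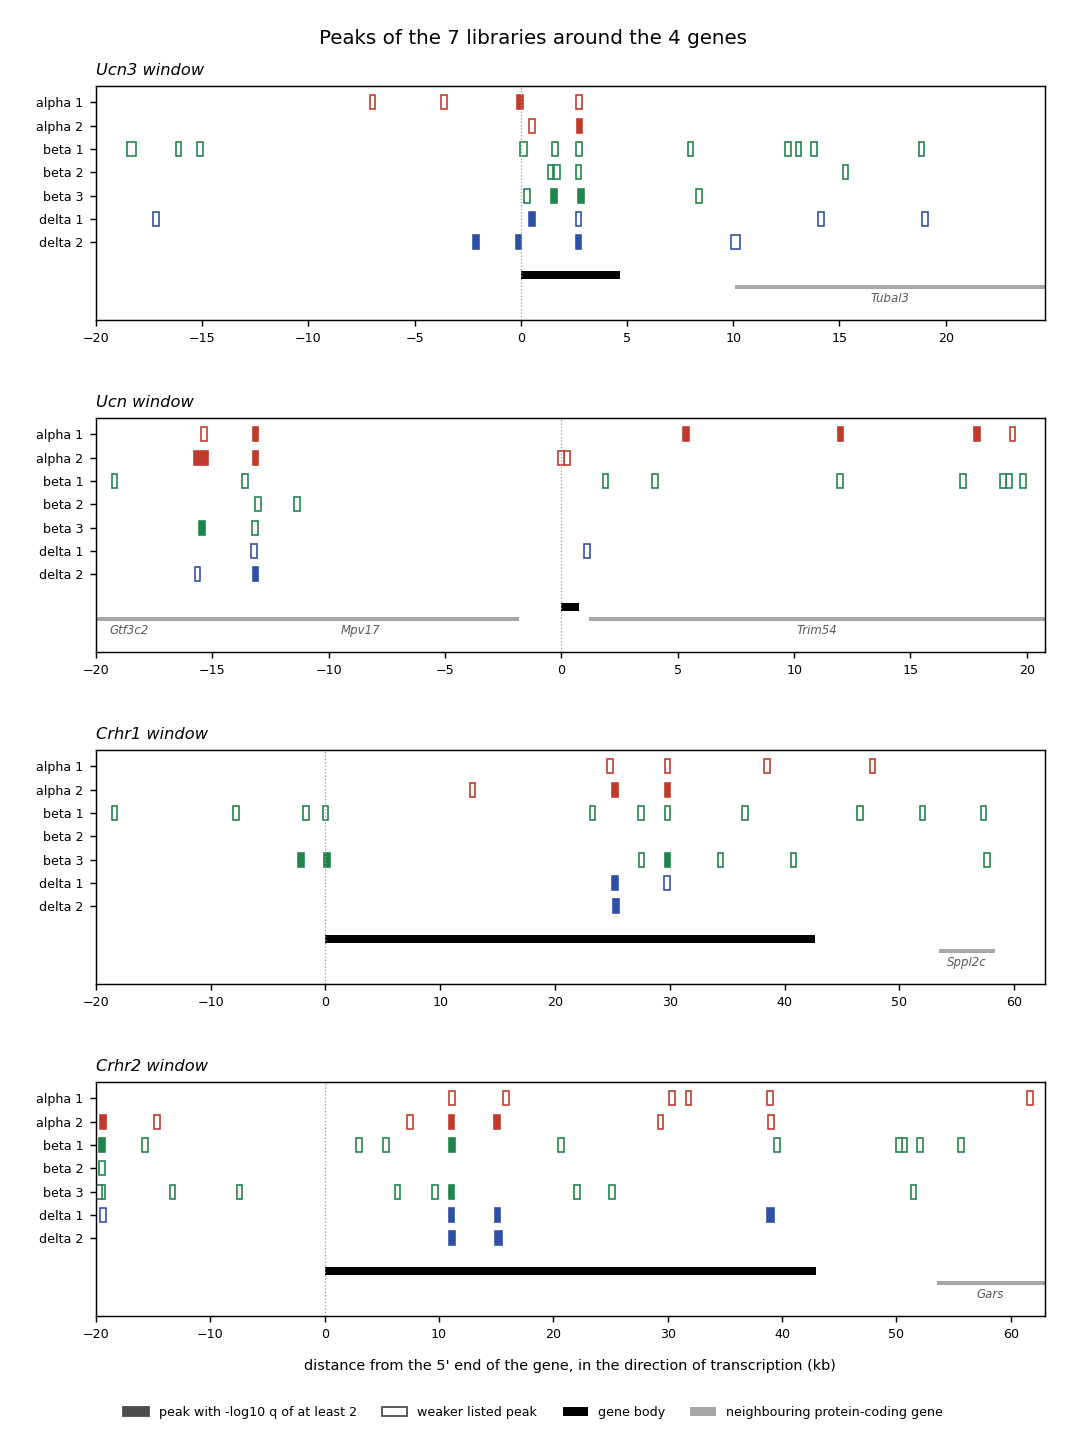
Peaks in the windows of the 4 genes, 1 panel per gene and 1 row per library, against the distance from the 5' end of the gene in kb. Boxes are peaks, filled where the -log10 q is at least 2 and drawn no narrower than is visible, with the gene body in black and neighbouring protein-coding genes in grey. The 42 peaks of beta 1 are spread over the windows, while the intron of Ucn3 and an intron of Crhr2 hold aligned peaks in 7 and 6 libraries.

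At Ucn3, the hormone gene of mature beta cells, all 7 libraries called a peak in the single intron, 2.8 kb downstream of the start (chr13:3942368-3942747). It was the 1 region of the 17 called in every library, against 13.3% of all regions called in at least 2. The -log10 q was 0.943 in alpha 1, 2.01 in alpha 2, 1.76 in beta 1, 0.348 in beta 2, 2.64 in beta 3, 1.03 in delta 1, and 2.24 in delta 2. The well-supported peaks were thus 1 in each cell type, and the values of the cell types overlapped. The summits, the points of highest signal, fell within 75 bp of each other, and 135 bp were covered in all 7 libraries.

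A further Ucn3 region in the same intron, 1.6 kb from the start (chr13:3943543-3944053), was called in all 3 beta libraries and in no alpha or delta library. Its -log10 q was 0.077 in beta 1, 0.816 in each of 2 peaks of beta 2, and 2.64 in beta 3, so 1 library supported it well. The 2 beta 2 peaks flank the beta 3 peak with summits 310 bp apart at the extremes, and 104 bp were covered in all 3 libraries. Without beta 1 the region was still called in beta 2 and beta 3 alone. It was 1 of 3 regions among the 17 called in 2 or more libraries of 1 cell type and in none of the others, all 3 of them in beta cells. Of all 133698 regions called in at least 2 libraries, 20324 (15.2%) were selective in this way, 14335 of them for beta cells. These 14335 were 1.72% of all 834695 merged regions, most of which came from 1 library and could not be selective. The 1.72% therefore compares with the 3 of 85 merged regions in the windows, and not with the 3 of 17.

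At the start of Ucn3 itself the libraries differed in where the peak lay. The summit was 113 bp upstream of the start in alpha 1 and 108 bp upstream in delta 2, with a -log10 q of 2.41 and 2.24. In beta 1 and beta 3 it lay in exon 1, 115 bp and 248 bp downstream, with 1.76 and 0.958. In alpha 2 and delta 1 it lay just past exon 1, 540 bp and 524 bp downstream, with 1.88 and 4.77. Beta 2 listed no peak within 1 kb of the start. A well-supported peak within 1 kb of the start was thus listed in alpha 1, delta 1, and delta 2, and in no beta library. This limit was reached by 5.0% of the peaks of beta 1 and by 54.9% of those of delta 2. As a percentile of its own list, where higher is stronger, the beta 1 peak was at 94.7 and the beta 3 peak at 17.1. The others were at 69.9 and 55.1 in alpha 1 and 2 and at 81.3 and 46.2 in delta 1 and 2. The peaks of delta 1 and delta 2 did not overlap and lay on opposite sides of the start. The share of all protein-coding genes with such a pattern was not computed.

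**Figure D2:**
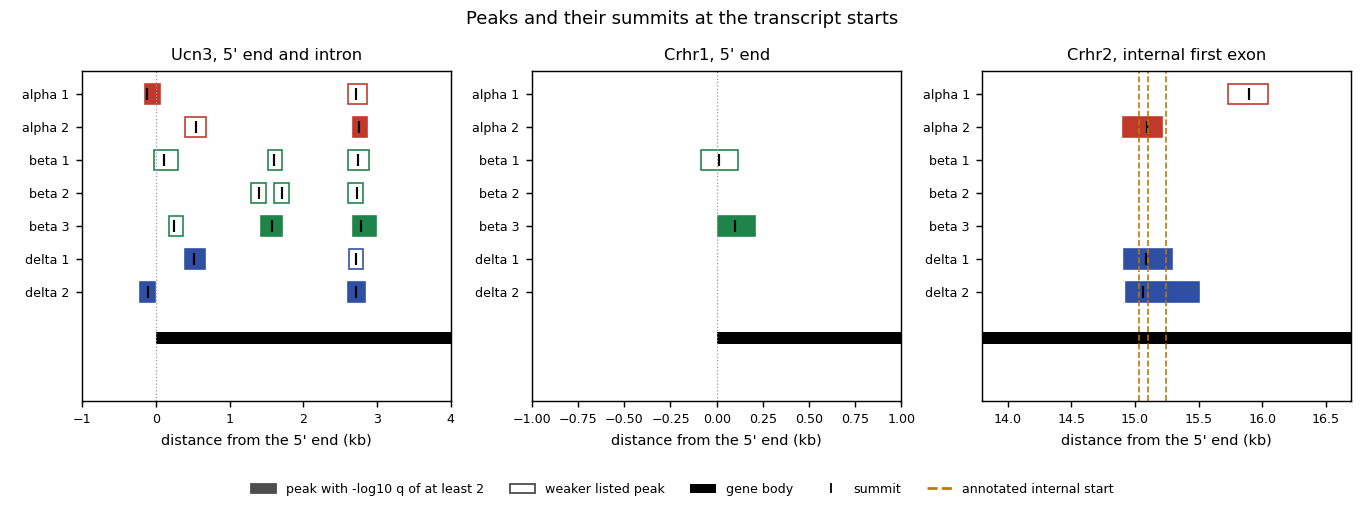
Peaks and summits at the 5' end and intron of Ucn3, the 5' end of Crhr1, and the internal first exon of Crhr2, against the distance from the 5' end of the gene in kb. Boxes are peaks, filled where the -log10 q is at least 2, black ticks are summits, and broken lines are annotated internal starts. The summits of alpha 2, delta 1, and delta 2 at Crhr2 lie within 28 bp of each other, and none of the beta libraries has a peak there.

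Of the Ucn3 peaks outside the gene, delta 2 listed 1 well-supported peak 2.1 kb upstream (-log10 q 2.12). The remaining Ucn3 region of at least 2 libraries, called in beta 1 and delta 1, lay in an intron of the neighbouring gene Tubal3 and had no well-supported peak and, without beta 1, 1 library. The other peaks of the window were in 1 library each.

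Crhr2, the receptor of urocortin 3, was called at an internal start in alpha 2 and in both delta libraries, and in no beta library (chr6:55117517-55118112). This region covers an exon with untranslated and coding bases, 15.2 kb into the longest transcript, where 3 shorter transcripts start. The -log10 q was 3.39 in alpha 2, 5.54 in delta 1, and 4.32 in delta 2. The summits lay 10 bp, 20 bp, and 38 bp upstream of the middle one of the 3 starts. Beta 1, 2, and 3, of mostly lower read depth, had no peak within 1 kb of any of the 8 starts of the gene. No library had one at the start of the longest transcript. In alpha 1 the nearest peaks were weak, 618 bp upstream of a start further downstream in the gene and 652 bp downstream of the last of these 3 internal starts, both with a -log10 q of 1.13. A peak near a start in both delta libraries and in no beta library was found for 0.561% of all protein-coding genes.

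The region with well-supported peaks in the most libraries, 5 of 7, was also at Crhr2, in the intron 11.1 kb from its 5' end (chr6:55121749-55122043). Its -log10 q was 1.88 in alpha 1, 3.97 in alpha 2, 4.10 in beta 1, 6.95 in beta 3, 6.99 in delta 1, and 6.23 in delta 2, and beta 2 had no peak. All 3 cell types therefore had a well-supported peak, and the beta libraries that called it overlapped the delta libraries in value. The 6 summits fell within 32 bp and 223 bp were covered in all 6. In beta 1 and beta 3 it ranked 12622 and 12666 in the list, against 19768 and 22200 in delta 2 and delta 1.

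The other Crhr2 regions were weaker. The region 39.0 kb into the gene (chr6:55093710-55094297) was called in alpha 1, alpha 2, and delta 1 with a -log10 q of 1.13, 0.182, and 3.75. The intergenic region 19.4 kb upstream (chr6:55152199-55152591) was called in alpha 2, all 3 beta libraries, and delta 1, with 2.03 in alpha 2 3.46, 1.82, and 1.43 in beta 1, 2, and 3, and 0.951 in delta 1. It lies inside the 20 kb flank by a short margin, since its middle is 19.4 kb from the gene.

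Crhr1, the other receptor, had a peak at its start in beta libraries alone (chr11:104132770-104133065). Beta 3 supported it well, with a -log10 q of 2.13 and a summit 98 bp downstream of the start, while in beta 1 the peak had a -log10 q of 0.077 at rank 269106 and beta 2 listed no Crhr1 peak at all. A start peak in at least 2 beta libraries and no other was found for 2.16% of protein-coding genes. Without beta 1 the call rests on beta 3. Beta 3 also listed a peak 2.1 kb upstream of the start with a -log10 q of 2.26.

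Within Crhr1, the region 25.2 kb from the start (chr11:104157902-104158272) was called in alpha 2 and both delta libraries with a -log10 q of 4.74, 7.99, and 3.21, and in no beta library. These are the same 3 libraries as at the internal start of Crhr2, and the 2 regions are the only ones of the 17 called in both delta libraries and in no beta library, against 4.85% of all regions called in at least 2. Alpha 2 was the only library of another cell type in both, so leaving it out makes both selective for delta cells by construction. Its peaks there were well supported. Alpha 1 listed a weak peak beside the Crhr1 region, at chr11:104157484-104157822 (-log10 q 0.278). The region 29.8 kb from the start (chr11:104162528-104162747) was called in alpha 1, alpha 2, beta 1, beta 3, and delta 1, with a -log10 q of 1.13, 2.74, 1.10, 2.73, and 0.951. Its interval is identical to the base in 4 of the lists and its summits lie within 5 bp. Such an identical interval in at least 4 lists was found for 680 (1.87%) of 36330 regions called in at least 5 libraries. The last Crhr1 region, 27.5 kb from the start, was called in beta 1 and beta 3 without a well-supported peak, and without beta 1 in beta 3 alone.

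Ucn, the ligand of both receptors, had almost no peaks of its own. Within 1 kb of its start alpha 2 listed 2 weak peaks, with a -log10 q of 1.02 and 0.182, and the other 6 libraries listed none. All 4 regions of the window called in at least 2 libraries lay in the neighbours. In an intron of Mpv17, 13.2 kb upstream of Ucn, every library but beta 1 had a peak, with a -log10 q of 2.81 and 6.74 in alpha 1 and 2, 1.82 and 1.23 in beta 2 and 3, and 1.91 and 2.64 in delta 1 and 2. The start of Mpv17 itself, 15.5 kb upstream, was called in alpha 1 and 2, beta 3, and delta 2 with 0.943, 6.29, 3.10, and 1.42. In Trim54, alpha 1 listed peaks with a -log10 q of 7.16, 6.71, and 2.16, of which the second was also called in beta 1 with 0.077.

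**Figure D3:**
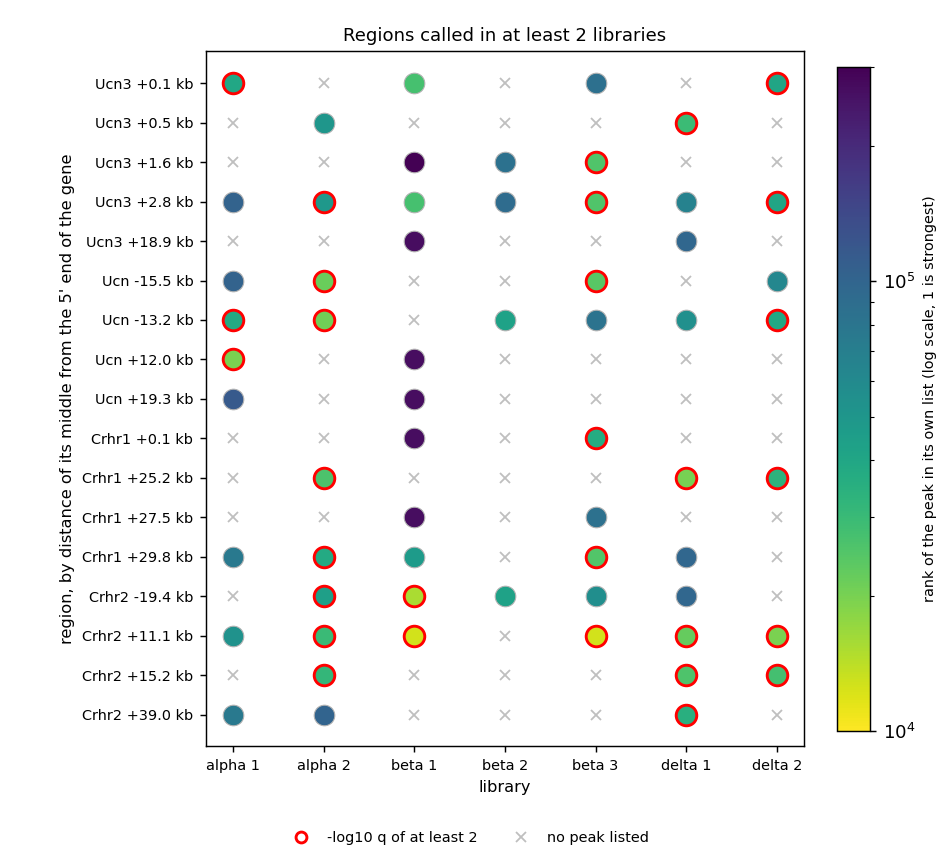
The 17 regions of the windows called in at least 2 libraries (rows, by the distance of the middle of the region from the 5' end of the gene in kb) in the 7 libraries (columns). Colour gives the rank of the peak in its own list on a log scale, where 1 is the strongest, red rings mark a -log10 q of at least 2, and crosses mark no listed peak. The Ucn3 row at +2.8 kb is filled in 7 libraries, and the rows Crhr1 +25.2 kb and Crhr2 +15.2 kb hold red rings in alpha 2, delta 1, and delta 2 alone.

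To compare cell types over libraries, peaks were ranked by -log10 p within each list, tied peaks were given their mean rank, and those with a rank of at most 50000 were called strong. The Ucn3 window held 1 strong peak in each alpha library, 2, 1, and 2 in beta 1, 2, and 3, and 1 and 3 in delta 1 and 2. The Ucn window held 4 and 2 in alpha cells, 0, 1, and 1 in beta cells, and 0 and 1 in delta cells. The Crhr1 window held 0 and 2 in alpha cells, 1, 0, and 3 in beta cells, and 1 and 1 in delta cells. The Crhr2 window held 0 and 3, then 3, 1, and 1, then 3 and 2, in the same order of cell types. At Ucn both alpha libraries held more than each of the other 5, as they did in the windows of 3.96% of all protein-coding genes, and their strong peaks lay in Trim54 and Mpv17. In the other 3 windows the cell types overlapped.

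Beta libraries were set against alpha and delta libraries for Ucn3, Ucn, and Crhr1, and delta libraries against alpha and beta libraries for Crhr2, by the exact two-sided permutation test over the assignments of libraries. The mean number of strong peaks at Ucn3 was 1.67 ± 0.577 (SD, n = 3) in beta cells and 1.5 ± 1.0 (n = 4) in the others (exact p = 1.00). At Ucn it was 0.667 ± 0.577 against 1.75 ± 1.71 (exact p = 0.514), and at Crhr1 1.33 ± 1.53 against 1.00 ± 0.816 (exact p = 0.771). At Crhr2 it was 2.50 ± 0.707 (n = 2) in delta cells and 1.6 ± 1.34 (n = 5) in the others (exact p = 0.476). None of the 4 differences had an exact p of at most 0.05. In size, the differences at Ucn and Crhr2 lay between the SDs of their groups, and those at Ucn3 and Crhr1 below both SDs. An unadjusted p of at most 0.05 was reached by 4.48% of all protein-coding genes in the comparison of beta cells and by 2.53% in that of delta cells, and by none after the Benjamini-Hochberg adjustment.

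The rank of the strongest peak within 1 kb of a start was compared in the same way, with missing peaks and ranks beyond 100000 set to 100000. At Ucn3 the rank was 39414 and 50319.5 in alpha 1 and 2, 27387 and 86183.5 in beta 1 and 3, and 29523.5 and 40798 in delta 1 and 2, with none in beta 2. The mean log10 rank was 4.79 ± 0.308 (n = 3) in beta cells and 4.59 ± 0.0953 (n = 4) in the others, a difference of 0.20 (exact permutation p = 0.286, adjusted p = 0.909). The Ucn3 start was thus not ranked better in beta libraries, and without beta 1 the difference was 0.37 (exact p = 0.0667), also toward a weaker rank in beta cells. At Crhr1 the ranks were 36966.5 in beta 3 and beyond the limit or missing elsewhere (difference -0.14, exact p = 0.429), and at Ucn 71012 in alpha 2 alone (difference 0.04, exact p = 1.00).

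At Crhr2 the strongest start peak ranked 25993.5 and 27518.5 in delta 1 and 2 and 75505.5 and 31734.5 in alpha 1 and 2, and was missing in the 3 beta libraries. The alpha 1 value is that of a weak peak near a different start, further downstream in the gene. By rank the delta libraries were ahead of each of the other 5, with a mean log10 rank of 4.43 ± 0.0175 (n = 2) against 4.88 ± 0.216 (n = 5). The difference of -0.45 had an exact permutation p of 0.0476, which is the smallest that 21 assignments allow, and the adjusted p over all protein-coding genes was 1.00. This unadjusted level was reached by 2.96% of all genes in this comparison and by 7.1% in that of beta cells. A rank also depends on the length of its list, and a missing peak in beta 2, whose list holds 91089, was set beyond the end of its list. As a percentile of its own list, delta 2 at 63.7 was behind alpha 2 at 71.7, with delta 1 at 83.6 and alpha 1 at 42.4, and ranks taken as a percent of the list gave an exact p of 0.238. With the 5' end of the gene as the 1 start, where no library had a peak, the difference was 0 (exact p = 1.00), so it rests on the internal starts. The unadjusted level was reached by 1 of the 8 tests made on the 4 genes. Without beta 1 the difference was -0.42 (exact p = 0.133), and with labels exchanged only within sequencing lanes, which leaves the delta libraries to trade with beta 2 and beta 3 alone, the exact p was 0.167, the smallest that 6 assignments allow.

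**Figure D4:**
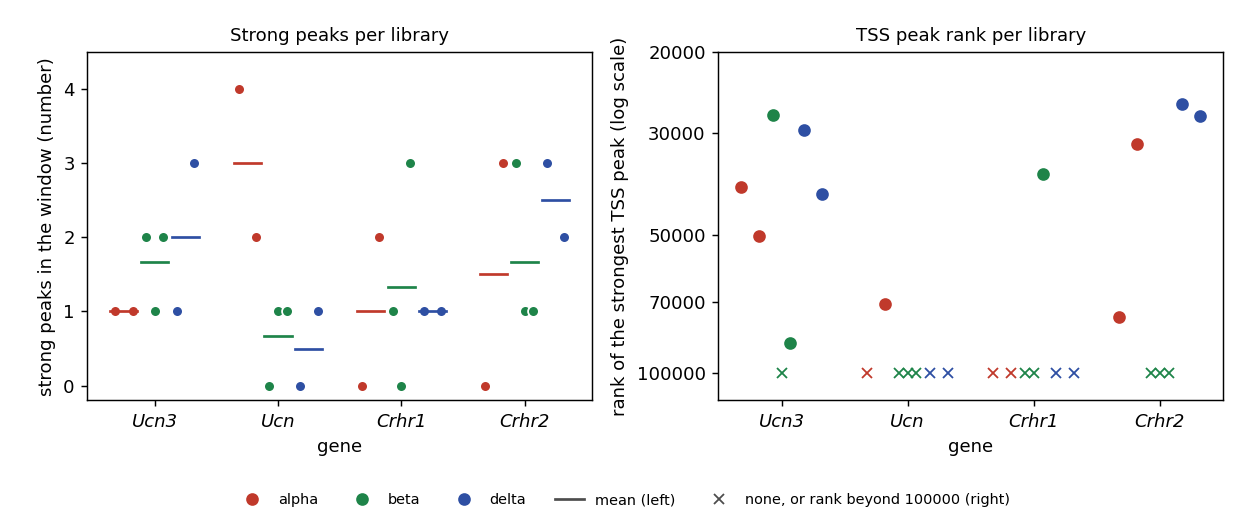
Strong peaks per window (left, number) and rank of the strongest peak within 1 kb of a start (right, log scale, stronger peaks toward the top) for the 4 genes. Each point is a library, coloured by cell type, lines on the left are group means, and crosses on the right stand at 100000 for a missing peak or a lower rank. At Crhr2 the ranks of the 2 delta libraries, 25993.5 and 27518.5, lie above those of the other 5 libraries.

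The genes whose start peak ranks over the 7 libraries were most like those of Ucn3 were Tmc7, Snx10, and Neu2, with a Pearson r of 0.99, 0.983, and 0.974 on the log10 scale. Those most like Crhr2 were Mymk, Il17b, and Gm10447, with 0.993, 0.991, and 0.988. These are the highest values among all protein-coding genes outside the windows, over 7 libraries that differ in depth, and are given as a description. Ucn and Crhr1 had a start peak in fewer than 3 libraries and were not compared in this way.

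The wider pathway was read at the start of 19 further genes, where a gene counted for a cell type if 2 or more of its libraries had a peak within 1 kb. This was met by 15 genes in alpha cells, 16 in beta cells, and 16 in delta cells, against 62.2%, 63.6%, and 59.2% of all protein-coding genes, and 11 of the 19 had a peak in all 7 libraries. Without beta 1 the count in beta cells was 12 of 19, against 49.6% of all genes. The cyclic AMP group holds the Gs subunit gene Gnas, adenylyl cyclases, protein kinase A subunits, and the cyclic AMP sensors Rapgef3 and Rapgef4. It met the criterion in 11, 11, and 12 of its 12 genes in alpha, beta, and delta cells. Without beta 1, 9 of these 12 genes met it in beta cells. Prkaca, a catalytic subunit of protein kinase A, had the strongest peaks, with ranks from 429 to 2780.5. Rapgef4, which encodes the exchange factor Epac2, had a peak in both alpha libraries, beta 1, and both delta libraries, and none in beta 2 or beta 3. The desensitisation group of arrestins and receptor kinases, Arrb1, Arrb2, Grk2, and Grk3, met the criterion in 4 of 4 genes in each cell type. Without beta 1, 3 of these 4 genes met it in beta cells.

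The remaining ligands were sparser. Crh, the gene of corticotropin-releasing hormone itself, had a peak near its start in alpha 2, beta 1, beta 2, and delta 1, with ranks of 4223, 2291.5, 29692, and 3385, and none in alpha 1, beta 3, or delta 2. It was thus called in 1 alpha, 2 beta, and 1 delta library, or 1 beta library without beta 1, and was far stronger in rank than any peak near the starts of Ucn3, Ucn, Crhr1, or Crhr2 in alpha 2, beta 1, and delta 1. Ucn2 had a peak in alpha 1 alone at rank 102325, and Crhbp, which encodes a protein that binds and sequesters these peptides, had none, like 11.2% of all protein-coding genes.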

How the data were processed

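Per the labels and the study's methods, the authors made the peak lists from single-end reads of each library on its own, with Trimmomatic for trimming, Bowtie2 for alignment to mm10, Picard for duplicates, a blacklist filter, and MACS2 for the peak calls. Tool versions are not given in the sources used here. Each deposited list gives a score, the fold enrichment of the summit over the local background (a ratio), the -log10 p, and the -log10 q, all made by the authors with MACS2. The lists hold no read counts, so read depth per region was not analysed here. The -log10 p was used for ranks, the -log10 q for support, the fold for an alternative, and the score was not used.

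An interval listed more than once was kept once, and regions were built by joining peaks of any library that share 1 bp or more. Windows and starts came from GENCODE vM21, and sequences from the RefSeq assembly GRCm38.p6. All region ends lay inside its chromosome lengths. Strong peaks were those ranked within 50000, and start peaks those within 1 kb of any annotated start. Tied peaks share their mean rank, a choice made after the ties were seen, and strong lists held 40295 to 63958 peaks. Cell types were compared by exact two-sided permutation tests over the libraries, with Benjamini-Hochberg adjustment over 21938 genes. The smallest p is 0.0286 for beta cells and 0.0476 for delta cells. The study's methods describe cell types taken from the same mice, so beta libraries may share animals with the alpha or delta libraries they were tested against. The sources used here do not tie libraries to animals beyond pools by sex, so the tests treat libraries as independent and p-values measure only the spread between them.

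The members, gene lists, motifs, and tests were chosen with earlier results of these data known. The named genes were the 4 members, genes overlapping their windows, the pathway list, the markers, and the 3 genes most like each member in start peak rank. Alternatives were other rank and q limits, flanks of 10 kb and 50 kb, starts within 3 kb, the gene 5' end alone, coverage of at least 0.5, a replicate block, permutation within sex, 3 added after seeing the data (permutation within lane, ties ordered by position, and ranks as a percent of the list), and the omission of single libraries. Python 3.11.15, numpy 2.4.6, pandas 2.3.3, scipy 1.17.1, and matplotlib 3.10.9 were used, and the steps were tested on simulated lists.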

Additional observations from a re-analysis of the deposited data

How the results depend on the processing

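Across 132 alternatives of the 8 tests, 7 turned the direction, none passed an adjusted p of 0.05, and 3 had an unadjusted p of at most 0.05. For strong peaks, the difference at Crhr2 was -2.15 with all listed peaks per 100000, at Ucn3 -0.833 where peaks needed a -log10 q of 2 and -0.167 with a flank of 10 kb, and at Crhr1 -0.25 with the 25000 strongest peaks, -0.583 with a flank of 50 kb, and -0.5 without beta 3. For start peak rank at Ucn3 it was -0.0017 within 3 kb. For start peak rank at Crhr2 it was 0 (exact p = 1.00) with the gene 5' end alone and -50.8 percentage points (exact p = 0.238) with ranks as a percent of the list, against -0.449 (exact p = 0.0476) as reported. The cause was not tested. Regions called in at least 2 libraries numbered 9 where peaks needed a -log10 q of 2, 9 with the 50000 strongest peaks, and 11 with a flank of 10 kb, and selective regions 0, 0, and 3. The lists left out in turn gave 12 to 17 regions and 1 to 5 selective ones, namely 5 without alpha 2 and 1 without beta 1 or beta 3. Over the same omissions the strong peak differences ran from 0 to 0.667 at Ucn3, -1.67 to -0.333 at Ucn, -0.5 to 1 at Crhr1, and 0.4 to 1.4 at Crhr2, and the rank differences from 0.0919 to 0.373, 0 to 0.0496, -0.216 to 0, and -0.542 to -0.418, the last with exact p from 0.0667 to 0.167.

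The correlations of the deviations of libraries lay between -0.0711 and 0.0711, so no pairing by replicate number was seen. Where a cell type has 2 libraries, these values come in pairs of equal size and opposite sign. They cannot show whether libraries shared animals. With the replicate block the exact p for Crhr2 was 0.111 for rank, with the difference of -0.449, and 0.667 for strong peaks, with 0.9. For Ucn3, Ucn, and Crhr1 it was 0.333, 1, and 1 for rank and 1, 0.778, and 0.889 for strong peaks. Within sex the exact p for Crhr2 was 0.0833 for rank. Peak lists hold no reads outside peaks, so a missing peak has no limit of detection.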

Other observations

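At the markers of delta cells, Hhex and Rbp4 and the ghrelin receptor gene Ghsr had a peak near a start in both alpha libraries, both delta libraries, and beta 1, and none in beta 2 or beta 3. Sst, the other delta marker, had such a peak in beta 1 and both delta libraries and in neither alpha library. Crhr2 had a peak within 1 kb of some start in both alpha and both delta libraries, and none in any beta library. The peaks of alpha 1 were weak and lay outside the internal start region that alpha 2 and both delta libraries called. The beta cell markers Mafa and Slc2a2 were called in all 7 libraries. Ins2, an insulin gene, was called in beta 1, beta 3, and delta 2 with ranks of 74481, 56848, and 49165.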
